A study of Homo sapiens with 6 samples.

Results

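The genes described here are replication-dependent histone genes that were matched by identifier to values from polyA RNA of H460 cells. They were chosen by symbol in the GENCODE v44 annotation of GRCh37, as protein-coding genes named H1-1 to H1-6 or named H2AC, H2BC, H3C or H4C followed by a number alone. Of 57773 genes in the deposited table, 33 met this rule, and 28 of them were above 0 in at least 1 library. The 5 genes listed at 0 in all libraries were H3C15, H2AC1, H2BC1, H1-1 and H2AC7. Another 31 genes with such symbols were not matched to the table by identifier and were not analysed here. Older Ensembl identifiers were not mapped, so whether these genes were read in the libraries is not known. The levels, ranks and sums below cover the matched genes only. The 28 genes comprised 5 H1, 6 H2A, 9 H2B, 4 H3 and 4 H4 genes. They lie in the large cluster on chromosome 6 (19 genes), at 2 places on chromosome 1 (6 and 2 genes) and on chromosome 12 (1 gene).

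H460 cells are an established lung cancer line, of the non-small-cell kind. The study asked how its transcriptome changes when *HKlincR1* (AC093323.3), a long intergenic non-coding RNA, is depleted. Cells were transfected for 48 hours with 50 nM siRNA using Lipofectamine RNAiMAX, with a non-targeting siRNA in 3 biological replicates (siNT) and with siRNA against AC093323.3 in another 3 (siHKlincR1). Both groups come from the 1 cell line, and the knockdown libraries rest on a single siRNA sequence, named siHKlincR1_2 in the study's methods.

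Histones package DNA into nucleosomes: H2A, H2B, H3 and H4 form the core and H1 binds the linker DNA. Most histone protein is made in S phase from the replication-dependent genes, whose mRNAs end in a conserved stem-loop in place of a polyA tail. SLBP binds that stem-loop and is needed for cleavage, export, translation and timed decay of these mRNAs. A polyA library therefore captures chiefly those histone transcripts that carry a tail, and the levels below describe what was captured, not total histone mRNA.

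The stem-loop is the sequence that sets these mRNAs apart, so one gene for each of its 5 versions, together with the other leading genes, is shown with 5 bases on either side. The sequences were read from GRCh37 on the transcript strand, 5′ to 3′, and capitals mark the stem-loop.
H2BC12: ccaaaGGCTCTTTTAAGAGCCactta
H2AC25: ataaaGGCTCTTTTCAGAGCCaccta
H1-2: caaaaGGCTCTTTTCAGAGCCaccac
H2BC5: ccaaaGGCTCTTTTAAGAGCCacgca
H2AC20: ccaaaGGCTCTTTTTAGAGCCaccca
H4C8: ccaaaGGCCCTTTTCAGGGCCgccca
H2AC11: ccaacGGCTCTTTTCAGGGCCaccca

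The stem-loop of H2BC12 lies at chr6:27114145-27114160 on the minus strand, that of H1-2 at chr6:26055972-26055987 on the minus strand and that of H2BC5 at chr6:26158815-26158830 on the plus strand. Those of H4C8 (chr6:26285359-26285374, minus) and H2AC11 (chr6:27101294-27101309, plus) are in the same cluster. On chromosome 1 lie those of H2AC25 (chr1:228645070-228645085, minus) and H2AC20 (chr1:149858941-149858956, plus). All are in the 3′ UTR of the annotated canonical transcript. Searched on the transcript strand within 150 nt after the stop codon, the stem-loop pattern (GG, any 2 bases, CTTTT, any base, AG, any 2 bases, CC) was found in all 28 genes and in 65 of 19763 protein-coding genes (0.329%). Those 65 include the 5 genes listed at 0 and 32 others, which are histone genes by symbol except TIPARP. The distance from the stop codon to the stem-loop ranged from 22 to 57 nt, with a median of 36 nt.

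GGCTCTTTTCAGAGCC was the commonest version, with 16 genes from the H1, H2A, H2B and H3 families. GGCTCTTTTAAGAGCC was shared by 6 genes, among them H2BC12, H2BC5, H2BC4 and H2BC11. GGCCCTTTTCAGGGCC was found in the 4 H4 genes and in no other of the 28. H2AC11 and H2AC20 each had a version of their own.

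Of polyA signals, only AATAAA was searched for close behind the stem-loop. AATAAA occurred within 50 nt after the stem-loop in 2 of the 28 genes (7.14%), H1-2 and H2BC5, in each 12 nt after it. For comparison, 4.71% of protein-coding genes held AATAAA in a window of the same length that starts 52 nt after the stop codon. The share of the 28 genes was thus near that of all genes. A GENCODE v44 transcript that ends over 50 nt beyond the stem-loop was annotated for 11 of the 28 genes. Among them were H2AC25, H2BC5, H2AC6, H2BC4 and H2BC21. H2BC12, H1-2 and H2AC20 had none. These are features of the annotation, and the ends of the sequenced transcripts were not measured.

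The promoters of these genes also share letters. RefSeq promoter sequences (GRCh38.p14) were matched for 26 of the 28 genes and searched on both strands. The octamer ATTTGCAT, known from H2B promoters as the site read by the POU factor OCT1, was present in 10 of them (38.5%), against 1.8% of all 27305 promoters of the same length. It occurred in 5 of 9 H2B and 4 of 6 H2A promoters and in no H1 or H4 promoter. TATAAA was present in 17 (65.4%, against 12% of all promoters). CCAAT was present in 23 (88.5%, against 35.7%), and the 3 H4 promoters were those without it. A match is a description of the letters and not a site in use.

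The libraries held 24980280 to 30521000 reads, of which 89.9% to 91.1% lay on listed genes. *HKlincR1* was read at 3.62, 3.47 and 3.83 RPKM (reads scaled to transcript length and library size) in the siNT libraries and at 0.563, 0.628 and 0.390 RPKM in the siHKlincR1 libraries. The groups were well separated, with a log2 change of -2.59 (SE 0.17, limma adjusted p = 0.00245). The epithelial keratin KRT18 averaged 82.4 RPKM with siNT, whereas the epithelial markers EPCAM and CDH1 were at or near 0 (0.0556 and 0 RPKM). Summed leukocyte and endothelial markers averaged 0.214 and 0.0106 RPKM with siNT and 0.205 and 0.0109 RPKM with siHKlincR1. Of the fibroblast markers, COL3A1 averaged 14.3 and 18.6 RPKM in the siNT and siHKlincR1 groups, and COL1A1 1.10 and 0.580 RPKM, while COL1A2 (0.0022 RPKM with siNT) and DCN (0 RPKM with siNT) were near or at 0. No cell type marker was called, and their part in the histone values was not tested.

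The 28 histone genes together made up very little of the polyA libraries, and 3 of them supplied most of their signal. The 31 genes not matched to the table are not part of these values. The share of a library's reads on the 28 genes was 0.00711%, 0.00728% and 0.00788% with siNT and 0.00646%, 0.00708% and 0.00706% with siHKlincR1. On this scale the groups did not overlap, but the gap was narrow (0.00711% against 0.00708%) and was not tested. Separation downward held for 11.9% of all single genes tested. Unscaled reads on the 28 genes, 1973, 2221 and 1968 with siNT and 1839, 2048 and 2113 with siHKlincR1, overlapped. The number of the 28 genes above 0 was 25, 26 and 26 with siNT and 23, 23 and 24 with siHKlincR1. That count depends on genes with few reads, reuses the rule that chose the genes and was not tested. Over the whole table, genes above 0 numbered 25493, 25585 and 24930 with siNT and 25317, 25570 and 25485 with siHKlincR1, which overlap. The summed level of the 28 genes was 86.0, 87.7 and 98.0 RPKM with siNT and 78.6, 85.6 and 87.8 RPKM with siHKlincR1. On the RPKM scale the groups overlapped, with 90.6 ± 6.49 RPKM against 84.0 ± 4.79 RPKM (SD, n = 3), so that the knockdown level was 92.8% of the control level. In bulk RNA, fewer cells in S phase and less captured RNA per cell cannot be told apart, and neither was tested. Captured RNA is not total histone mRNA. H2BC12, H2AC25 and H1-2 took 78.4% to 80.3% of the sum in each library.

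**Figure D1:**
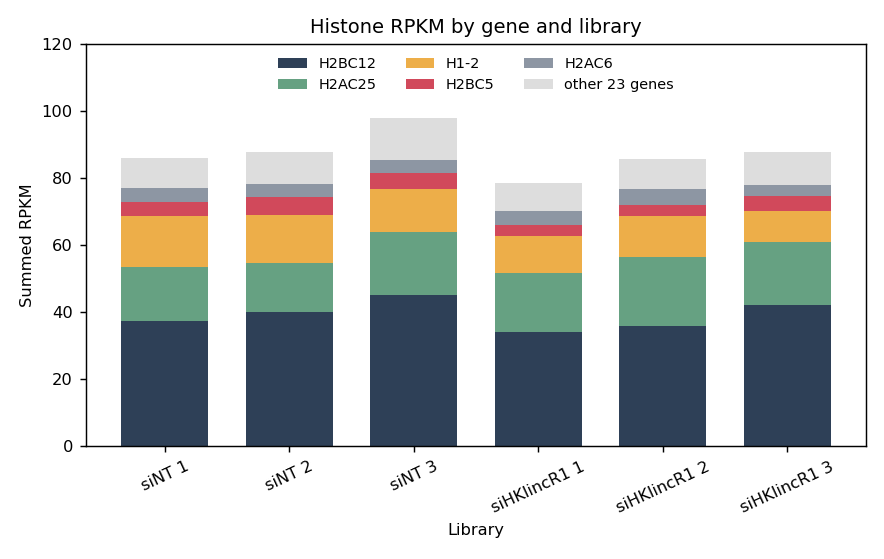
Stacked bars give the summed RPKM of the 28 replication-dependent histone genes in each of the 6 libraries, from 0, with the 5 genes of highest mean drawn separately and the other 23 pooled. H2BC12, H2AC25 and H1-2 fill most of every bar, and the bars of both groups cover overlapping heights.

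Levels differed widely between the genes. Mean RPKM over the 6 libraries was 39.1 for H2BC12, 17.7 for H2AC25, 12.5 for H1-2, 4.20 for H2BC5 and 4.04 for H2AC6. H2BC4 (1.79 RPKM), H2BC21 (1.43 RPKM) and H2AC20 (1.18 RPKM) followed. Among these 8 genes, the neighbours whose libraries overlapped were H2AC25 and H1-2, H2BC5 and H2AC6, and H2BC21 and H2AC20. Every library of H2BC12 exceeded every library of H2AC25. RPKM depends on the length the authors' gene model gives a gene. That length was 820 nt for H2BC12, whose canonical transcript has 495 nt, and 732 nt for H1-2, whose canonical transcript has 731 nt. For 13 of the 28 genes the model was over 100 nt longer than the canonical transcript.

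A level of at least 0.5 RPKM on average, the minimum for a test, was reached by 11 of the 28 genes. The other 17 had means of at most 0.437 RPKM and between 1 and 307 reads in all libraries together. Across libraries, 18 genes were above 0 in all 6, and 5 genes had no more than 3 reads in any library (H3C13, H4C11, H1-5, H1-6 and H3C14). Of the 11 genes tested, 8 had an annotated transcript that ends beyond the stem-loop, against 3 of the 17 not tested. The median of the mean levels was 0.878 RPKM for the 11 genes with such a transcript and 0.177 RPKM for the 17 without. However, H2BC12 and H1-2, among the 3 genes of highest level, belong to the second group. This split follows the GENCODE annotation, but reads were counted on the authors' gene models, which did not always follow it. For H2AC25 and H2BC26, in the first group, the model had 496 and 452 nt, less than the canonical 510 and 456 nt. For H2BC12 and H2AC11, in the second, it had 820 and 2239 nt against 495 and 493 nt. The split therefore cannot show whether ends past the stem-loop were counted. H2BC12 also shared sequence with other genes, with 39.0% of its 75-nt windows found in transcripts of other genes. The share was over 50% for 6 of the 28 genes, none of which reached the level for a test, and 0 for 13 genes.

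**Figure D2:**
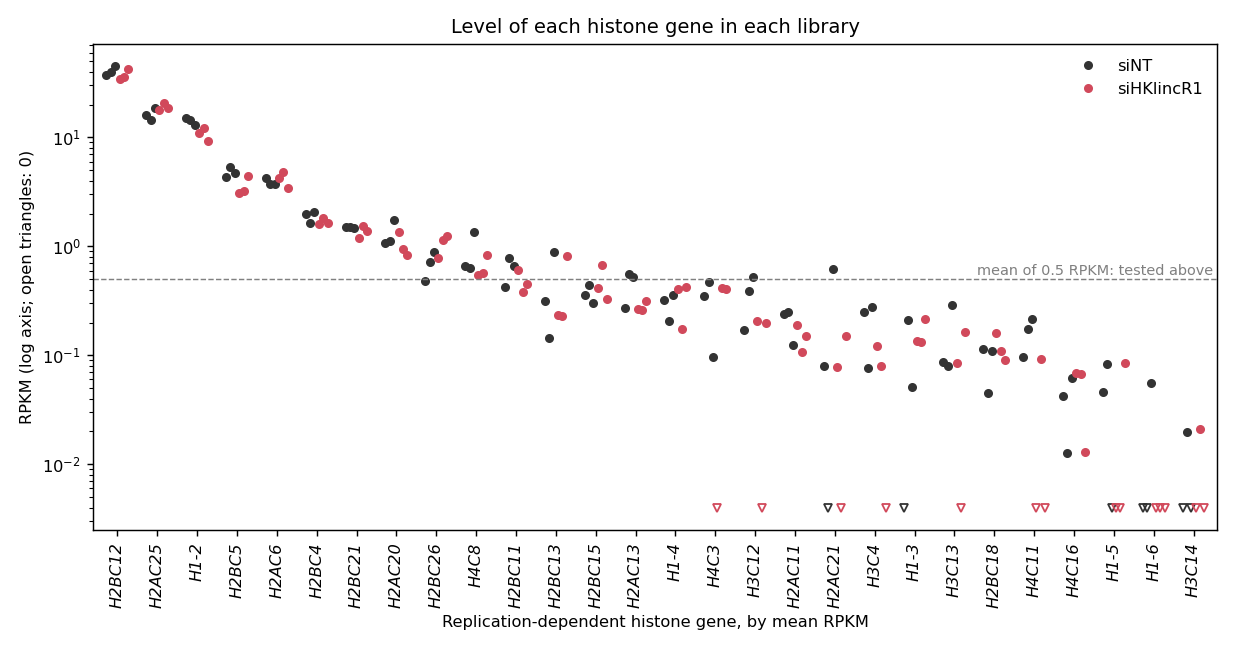
Each point is the RPKM (log axis) of 1 of the 28 histone genes in 1 of the 6 libraries, in order of mean level, with siNT in dark grey and siHKlincR1 in red and open triangles for a value of 0. Levels fall from 39.1 RPKM on average for H2BC12 to under 0.01 RPKM for H1-6 and H3C14, and the 17 genes to the right fall below the mean of 0.5 RPKM needed for a test.

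The replacement histone variants, which are made throughout the cell cycle from mRNAs with a polyA tail, were read at higher levels. The 12 variants summed to 376 ± 18.9 RPKM with siNT and 363 ± 13.8 RPKM with siHKlincR1 (SD, n = 3). The 28 replication-dependent genes amounted to 21.4% to 24.8% of that sum. H2AZ1, a variant of H2A found at promoters, averaged 94.0 RPKM with siNT, and H3-3B, a gene for the H3.3 variant, averaged 80.4 RPKM. H2AX, the variant phosphorylated at DNA breaks and a gene with both a stem-loop and polyadenylated transcripts, averaged 36.3 RPKM. Most listed RNAs made without a polyA tail were read at low levels, with a median of 0.280 RPKM over the 10 above 0. What set their levels was not tested. The 11 matched of 18 such RNAs summed to 24.5 ± 7.52 RPKM with siNT and 26.3 ± 8.10 RPKM with siHKlincR1, of which RN7SL2, the RNA of the signal recognition particle, gave 18.1 and 19.6 RPKM.

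**Figure D3:**
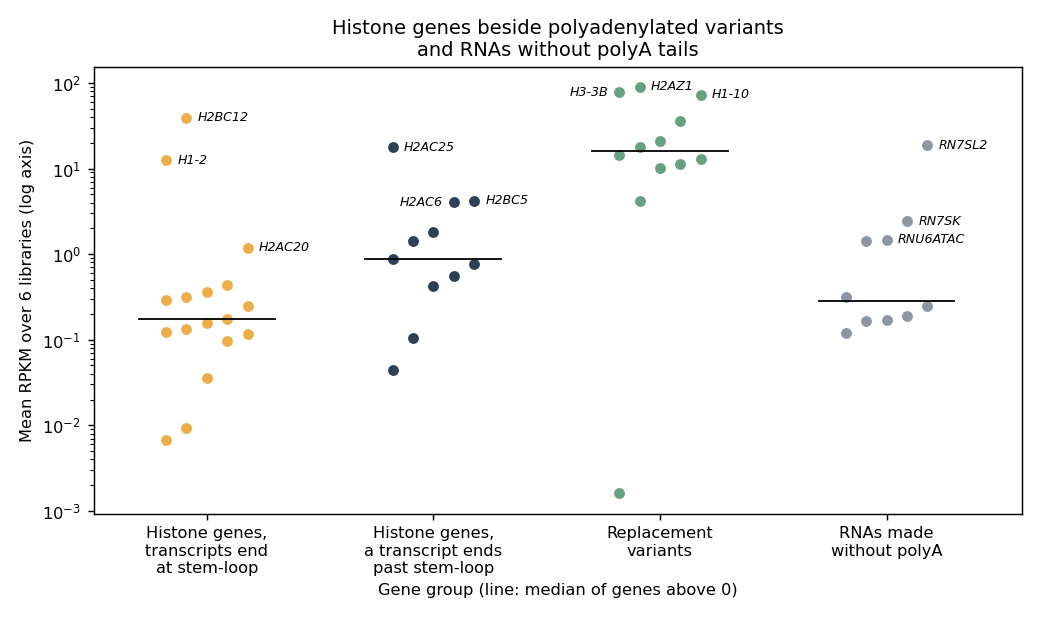
Points give the mean RPKM over 6 libraries (log axis) of single genes, for the 17 histone genes without and the 11 with an annotated transcript ending over 50 nt past the stem-loop, for 12 replacement variants and for RNAs made without polyA. Lines are medians of the genes above 0 (0.177, 0.878, 16.2 and 0.280 RPKM), and 1 of the 11 RNAs without polyA is at 0 and not drawn. The split of the histone genes follows the GENCODE annotation, which the counted gene models did not always match.

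None of the 11 tested genes passed an adjusted p under 0.05 with a fold change above 1.5 after the knockdown, in limma on log2(RPKM + 0.1), with the replicate number as a block, or with voom on reads worked back from RPKM. Over all 15451 genes tested, limma called 0.356% lower and 0.00647% higher. The block raised these to 0.809% and 0.511%, and voom gave 0.57% and 0.0129%. At an unadjusted p under 0.05, limma and voom each counted 2 of the 11, with limma's 2 both lower, H1-2 and H2BC5, where 9.19% of all genes were lower and 7.04% higher at that p. The fitted log2 change was negative for 8 of the 11 and positive for 3, where 49.8% of all genes were negative and 50.2% positive. Their median was -0.16 against 0.0011 over all genes. As related genes of 1 pathway that may share reads, the 11 are not replicates.

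**Figure D4:**
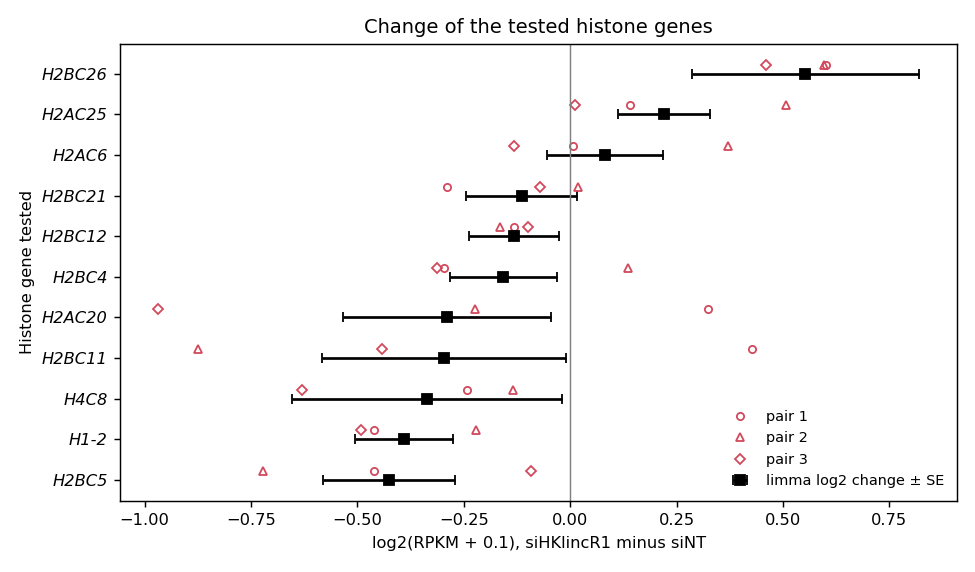
Black squares with bars give limma's log2 change ± SE (siHKlincR1 minus siNT, on log2(RPKM + 0.1), n = 3 each) for the 11 tested histone genes, and open symbols the difference within each pair of same-numbered libraries. H1-2 and H2BC5 lie lowest and H2BC26 highest, and no gene passed the adjusted test.

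H1-2 encodes a linker histone and was the gene with the lowest p. It was read at 15.2, 14.3 and 13.1 RPKM in the siNT libraries and at 11, 12.3 and 9.27 RPKM in the siHKlincR1 libraries. All knockdown libraries lay below all control libraries, which held for no other tested histone gene and for 11.9% of all genes tested. No tested histone gene was separated upward, as 10.1% of all genes were. The mean was 14.2 ± 1.05 RPKM against 10.8 ± 1.51 RPKM (SD, n = 3), a log2 change of -0.39 (SE 0.11, limma adjusted p = 0.214, or 0.0615 in the blocked fit). The other H1 genes were near the limit of detection. H1-4 was read with 7, 5 and 7 reads with siNT and 9, 4 and 10 reads with siHKlincR1.

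H2BC12 and H2BC5 encode core histone H2B. H2BC12 stood at 37.4, 40.2 and 45.2 RPKM with siNT and at 34.1, 35.8 and 42.1 RPKM with siHKlincR1. Each knockdown library was below the control library of the same number, but the groups overlapped, and the log2 change was -0.13 (SE 0.11, limma adjusted p = 0.543). H2BC5 had 4.29, 5.40 and 4.73 RPKM with siNT and 3.09, 3.23 and 4.43 RPKM with siHKlincR1. The first and second knockdown libraries were below all controls and the third was within their range. The log2 change of H2BC5 was -0.42 (SE 0.15, limma adjusted p = 0.268). Without the third siHKlincR1 library it was -0.58 (limma adjusted p = 0.0387), a fold change still under 1.5.

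H2BC26, at the smaller chromosome 1 locus, had the largest positive change. It had 6, 10 and 10 reads with siNT and 10, 15 and 17 reads with siHKlincR1, or 0.478, 0.725 and 0.886 RPKM against 0.777, 1.15 and 1.26 RPKM. Each knockdown library exceeded its same-numbered control, yet the groups overlapped. The log2 change was 0.55 (SE 0.27, limma adjusted p = 0.346), and 27.5% of the 75-nt windows of H2BC26 occur in other genes.

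The other tested H2B genes had negative log2 changes, and none was called. H2BC4 was read at 1.99, 1.65 and 2.06 RPKM with siNT and at 1.60, 1.82 and 1.64 RPKM with siHKlincR1, a log2 change of -0.16 (limma adjusted p = 0.547). H2BC21, whose canonical transcript already extends 1729 nt past the stem-loop, had 1.49, 1.52 and 1.46 RPKM against 1.20, 1.54 and 1.38 RPKM (log2 change -0.11, limma adjusted p = 0.675). H2BC11 had 0.426, 0.774 and 0.655 RPKM against 0.607, 0.377 and 0.456 RPKM (log2 change -0.30, limma adjusted p = 0.617). In all 3 the groups overlapped. Of the H2B genes below the test level, H2BC15 had the most reads, 42, 57 and 32 with siNT and 50, 84 and 42 with siHKlincR1, spread over a gene model of 4265 nt. H2BC13 had 4, 2 and 10 reads against 3, 3 and 11.

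H2AC25 and H2AC6 encode core histone H2A. H2AC25, the neighbour of H2BC26 on the opposite strand, had 16.1, 14.5 and 18.6 RPKM with siNT and 17.7, 20.7 and 18.8 RPKM with siHKlincR1. Its groups overlapped, although every pair was higher with siHKlincR1, and the log2 change was 0.22 (SE 0.11, limma adjusted p = 0.349). As a share of the summed histone RPKM, H2AC25 stood at 18.1% ± 1.33 with siNT and 22.7% ± 1.39 with siHKlincR1 (SD, n = 3), and on this scale, which was looked at after the values were seen and was not tested, the groups did not overlap. H2AC6 had 4.26, 3.71 and 3.74 RPKM with siNT and 4.28, 4.83 and 3.41 RPKM with siHKlincR1, a log2 change of 0.082 (limma adjusted p = 0.783). That small difference turned to -0.029 without the second siHKlincR1 library. H2AC20, with a stem-loop version of its own, had 1.07, 1.12 and 1.74 RPKM against 1.37, 0.949 and 0.841 RPKM, which overlap, and a log2 change of -0.29 (SE 0.24, limma adjusted p = 0.568).

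The 4 H4 and 4 H3 genes measured were read at low levels. H4C8 was the 1 H4 gene at a level for testing, with 0.662, 0.634 and 1.36 RPKM in the siNT libraries and 0.544, 0.568 and 0.840 RPKM in the siHKlincR1 libraries. Its log2 change of -0.34 (SE 0.32, limma adjusted p = 0.610) rested on the third siNT library, without which it was -0.016. H4C3 had 4, 6 and 1 reads with siNT and 0, 5 and 5 reads with siHKlincR1. The 4 H3 genes together had 11, 14 and 20 reads with siNT and 9, 3 and 7 reads with siHKlincR1, which were too few for a test. H3C12 supplied 4, 10 and 11 of these reads with siNT and 5, 0 and 5 with siHKlincR1, and H3C4 supplied 6, 2 and 6 against 3, 2 and 0. For H3C4, 96.3% of the 75-nt windows occur in other genes, so its reads cannot be assigned to it with certainty.

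By family, the H1 sum was 14.6 ± 1.01 RPKM with siNT and 11.4 ± 1.31 RPKM with siHKlincR1 (SD, n = 3), nearly all of it H1-2. The H2A sum was 22.5 ± 2.66 against 24.8 ± 1.78 RPKM, and the H2B sum 51.3 ± 4.71 against 46.6 ± 5.36 RPKM. The H3 sum was 0.722 ± 0.322 against 0.293 ± 0.168 RPKM, and the H4 sum 1.39 ± 0.301 against 1.00 ± 0.344 RPKM. The H2A, H2B and H4 sums overlapped between the groups. The H1 sums and the H3 sums did not, where 11.9% of all single genes tested were separated downward. Neither sum was tested, and the H1 sum repeats the separation of H1-2. The H3 sum rests on at most 20 reads a library. Of the 75-nt windows of H3C4, H3C13 and H3C14, 96.3%, 69.6% and 99.1% occur in other genes, and 0% of those of H3C12. The 17 genes not tested had 100, 123 and 105 reads with siNT and 106, 126 and 106 reads with siHKlincR1, again overlapping.

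Among genes that act on histone mRNA, no list held a gene called by limma. Of 18 genes of histone mRNA 3′ end formation and decay, 6 had a negative and 12 a positive log2 change (median 0.063). At an unadjusted p under 0.05, limma counted 1 of these 18, which was lower, and voom 1. Over all 15451 genes, limma counted 9.19% lower and 7.04% higher at that p, and voom counted 2673 genes. SLBP averaged 30.5 ± 1.75 RPKM with siNT and 26.2 ± 3.73 RPKM with siHKlincR1 (log2 change -0.23, limma adjusted p = 0.345). The largest changes in that list were 0.41 for CSTF2, a cleavage stimulation factor (limma adjusted p = 0.344), and -0.31 for LSM11, a subunit of the U7 snRNP (limma adjusted p = 0.250). Of 8 genes of histone locus transcription, 6 had a negative log2 change (median -0.17), with limma counting 2 lower and voom 3 in all at an unadjusted p under 0.05. NPAT, the coactivator of the histone locus, was at 2.66 and 2.70 RPKM. CCNE1 and CCNE2, the cyclins E that act with CDK2 on NPAT, had log2 changes of -0.51 and -0.90 (limma adjusted p = 0.170 and 0.230). Of 13 genes of the general polyA machinery, 4 were negative and 9 positive (median 0.024), and limma counted 1 lower and 4 higher at an unadjusted p under 0.05, and voom counted 5 in all. CLP1 had a log2 change of -0.40 and PABPN1 one of 0.26 (limma adjusted p = 0.268 and 0.233).

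The replacement variants and chaperones likewise held no gene called by limma. Of the 11 variants tested, 7 had a negative log2 change (median -0.10). At an unadjusted p under 0.05, limma counted 2 lower and 1 higher, and voom counted 3 in all. Over all genes tested, limma counted 9.19% lower and 7.04% higher at that p. H2AZ2, a variant of H2A, had a log2 change of -0.38 (limma adjusted p = 0.111). The log2 changes of H2AZ1, H3-3B and H2AX were -0.14, -0.10 and 0.014, and that of H2AX turned negative on the TPM scale. Of 19 chaperone genes tested, 12 were negative (median -0.12), and limma counted 4 lower at an unadjusted p under 0.05, and voom counted 4 in all. ASF1B and CHAF1A, which deliver new H3 and H4 to replicating DNA, had log2 changes of -0.58 and -0.49 (limma adjusted p = 0.269 and 0.199). Of the 4 RNAs without polyA that were tested, 2 were negative and 2 positive, with none at an unadjusted p under 0.05 by limma or voom. RNU6ATAC, a minor spliceosomal RNA, had a log2 change of 0.80 and RN7SK one of -0.18.

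The S phase markers had mostly negative changes beside those of the histone genes. Of 42 S phase marker genes tested, 38 had a negative log2 change (median -0.25), where 49.8% of all genes were negative. At an unadjusted p under 0.05, limma counted 12 lower, where 9.19% of all genes were lower. At that p voom counted 16 in all, and 2673 of all 15451 genes. SLBP, CCNE2, CASP8AP2, NASP and CHAF1B are also in the lists above, so the lists overlap. Without the block, limma called no S phase marker. With the block, limma called CDC6, the loader of the replicative helicase, which averaged 25.8 RPKM with siNT and 16.6 RPKM with siHKlincR1 (log2 change -0.65, limma adjusted p = 0.174, or 0.0436 in the blocked fit). The summed S phase level was 874, 910 and 988 RPKM with siNT and 734, 652 and 945 RPKM with siHKlincR1. The third siHKlincR1 library lay within the control range on this sum. Among the knockdown libraries it had the highest summed histone RPKM (87.8), H2BC12 (42.1 RPKM) and H2BC5 (4.43 RPKM). H2BC26 (1.26 RPKM) and H4C8 (0.840 RPKM) were also highest in it. But H1-2 (9.27 RPKM), H2AC6 (3.41 RPKM) and H2AC20 (0.841 RPKM) were lowest in it, and H2AC25, H2BC4, H2BC21 and H2BC11 lay between. The part of S phase content in the histone values was not tested.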

How the data were processed

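RNA of H460 cells (3 siNT and 3 siHKlincR1 libraries) was sequenced by the authors from strand-specific polyA libraries as paired-end 75-base reads. Per the labels, CASAVA 1.8.2 and featureCounts were used with hg19. The authors counted reads on Ensembl 74 gene models and deposited RPKM values, which were used as they are. The aligner and the strand setting in counting are not given in the sources used here, so overlapping genes such as H2AC21 and BOLA1, and near-identical histone copies, are uncertain. The authors' own test used edgeR.

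Library totals and reads were worked back from RPKM, and 100% of nonzero values came out as whole reads. Each gene's length was worked back from the same values so as to make them whole, so this share is only a weak check. A factor shared by a gene's length and all its reads would go unseen. limma 3.58.1 in R 4.3.3 (lmFit, eBayes with trend) was run on log2(RPKM + 0.1) for the 15451 genes averaging 0.5 RPKM or more, with Benjamini-Hochberg adjustment. Calls needed a fold change above 1.5 at an adjusted p under 0.05. A pseudocount shrinks the changes of low genes. Exact permutation of 3 against 3 libraries allows no two-sided p under 0.1. The steps were tested on simulated data. Counting error alone limits genes with few reads.

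Replicate numbers come from the labels, which do not say whether libraries of one number were made side by side. The deviations of same-numbered libraries correlated at 0.142, 0.137 and 0.266 across genes. Those of differently numbered libraries correlated at -0.209 to 0.113. Deviations were taken within each group, so a higher value in some pairs goes with lower values in others. These values cannot settle whether the numbers mark pairs. The fit with the number as a block was given beside the main fit for the counts of called genes, H1-2 and CDC6.

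The histone genes and all lists were chosen with earlier results of these data known. Named genes are the 2 highest of each family, the 3 largest rises and falls among tested histone genes, SLBP, NPAT, H2AZ1, H2AX, H3-3B, called genes and at most 2 genes of largest change per list. Of the genes this rule names, not all are reported here. The others were named after their values were seen. The lists were replacement variants, 3′ end formation and decay, histone locus transcription, chaperones, polyA machinery, RNAs without polyA, S phase markers and cell type markers. Alternatives changed the pseudocount, filter, scaling, variance model and tool, added the block and left out each library. Sequences were read from GRCh37 with GENCODE 44 and from RefSeq promoters. Python 3.11.15 was used.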

Additional observations from a re-analysis of the deposited data

How the results depend on the processing

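No histone gene was called lower or higher under any alternative run. Over the alternatives, the median log2 change of the tested histone genes ranged from -0.23 to -0.082, and the knockdown sum from 90.2% to 96.7% of the siNT sum. The lower end of the median came from genes with under 5% of 75-nt windows in other genes, and leaving H2BC12 out of the sum gave 94.0%. Both of these were chosen after seeing the data.

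The count over all genes depended on the setting. Against 55 genes called lower and 1 higher, there were 34 lower and 12 higher with no filter on low values, 16 lower without the variance trend, 88 lower and 2 higher with voom, 0 higher with a pseudocount of 0.01 and 2 higher with libraries shifted to the same median. Leaving out 1 library gave 7 to 314 lower and 0 to 204 higher, with the highest counts without the third siHKlincR1 library. Without that library, CCNE2 (-1.24), CDC6 (-0.85), ASF1B (-0.83), CHAF1A (-0.62) and CSTF2 (0.63) were called. The replicate block gave 125 lower and 79 higher and called CDC6, and among the other named genes it changed no call. The causes were not tested.

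Log2 changes near 0 turned direction. On the TPM scale, NPAT was -0.018 and H2AX -0.027. With 1 library left out, H2AC6 ranged from -0.029 (without the second siHKlincR1) to 0.22, NPAT from -0.049 (without the third siNT) to 0.081, H2AX from -0.071 (without the second siNT) to 0.17 and RN7SK from -0.41 to 0.085 (without the first siHKlincR1). H2AX was also negative without the first siNT (-0.059) and the third siHKlincR1 (-0.053). Most histone genes under 0.5 RPKM had few reads, which limits what could be detected in them.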
